A study of Mus musculus with 20 samples.

Results

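The genes described here are a set of choroid plexus genes, 34 in number, taken from a list that was drawn up with results of these arrays already known. They are treated here as chosen by their changes from baseline and their covariation on these same arrays, which are therefore given as a description. They were found by the gene symbol paired with each transcript cluster of the array, the unit that stands for 1 gene in most cases, and only transcript clusters paired with exactly 1 symbol were used. Of the 34 genes, 32 were found, each with 1 transcript cluster, among 19938 genes that could have been found in this way. Enpp2 and Prlr were not matched and were not analysed here.

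The study asked how gene expression in the amygdala and the hippocampus follows conditioned fear (CF) training in mice that lack both calcium-stimulated adenylyl cyclases. Messages were measured with 20 Affymetrix Mouse Gene ST arrays, 1 array for each of 2 regions, 2 genotypes and 5 times, so that the 4 groups of region and genotype hold 5 arrays each. The groups were amygdala of DKO mice, amygdala of WT mice, hippocampus of DKO mice and hippocampus of WT mice, all from males of the C57BL/6 strain at 2 mo of age. DKO mice carry null alleles of both Adcy1 and Adcy8 (AC1 and AC8). By the study's methods they were littermates of AC8 rescue mice, with 1 or neither of the tetop-AC8 and CaMKII-tTA transgenes, from matings kept on doxycycline until weaning, whereas WT mice were not their littermates, so genotype and breeding history cannot be told apart. The times were baseline (no training), then 0 hr, 1 hr, 48 hr and 1 wk after a CF training trial of 5 min. In training, by the study's methods, time in the chamber and white noise came before 1 shock of 0.7 mA for 2 sec. The 1 wk mice had also gone through a testing trial of 5 min. Tissue was taken by micropunch and RNA of 5 to 10 mice was pooled for each array.

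All values are log2 RMA values, a normalized probe intensity on which a step of 1 is a doubling. Array medians lay between 6.64 and 6.83, and any 2 arrays correlated at 0.983 to 0.997 over all 28853 transcript clusters. The genotype labels were borne out by the deleted genes. Adcy8 read 5.46 to 5.89 in the DKO amygdala, against 6.94 to 7.26 in the WT amygdala, and 5.22 to 5.79 in the DKO hippocampus, against 7.14 to 7.66 in the WT hippocampus. Adcy1 read 7.51 to 7.77 in the DKO amygdala, against 7.97 to 8.38 in the WT amygdala, and 7.67 to 7.80 in the DKO hippocampus, against 9.04 to 9.53 in the WT hippocampus. Of marker genes set against the labelled regions, 6 of 6 amygdala markers were higher in the amygdala (limma, adjusted p below 0.05, 8.78% of all transcript clusters). There 7 of 8 hippocampus markers were lower (8.95% of all). These marker lists were chosen with earlier results of these data known, so they are no independent check of the region labels.

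The choroid plexus is a sheet of secretory epithelium that hangs into the brain ventricles and makes most of the cerebrospinal fluid, and the lateral ventricle runs beside both the hippocampus and the amygdala. Its epithelial cells move ions, water, bicarbonate, folate and sulfate between blood and fluid, are joined by tight junctions and release carrier proteins and growth factors into the fluid. The message for transthyretin is among the most abundant in these cells. In pooled tissue such as this, fewer choroid plexus cells and less RNA per cell cannot be told apart.

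The DNA around the start sites of the genes was also examined, and any part of it in their changes was not tested. RefSeq promoters of 300 bases (250 before and 50 after the start, build GRCm38.p6) were on hand for 26 of the 32 genes, 36 promoters in all. Ttr, Clic6, Sostdc1, Folr1, Lbp and Sulf1 had none in the table. The promoters of 4 genes are shown, 2 of the genes that varied strongly (Ecrg4 and Kl), the potassium channel Kcnj13 and the homeobox gene Otx2, with a found motif in capitals, 5′ to 3′ along the gene's own strand.
Ecrg4, chr1:43730352-43730651, plus strand: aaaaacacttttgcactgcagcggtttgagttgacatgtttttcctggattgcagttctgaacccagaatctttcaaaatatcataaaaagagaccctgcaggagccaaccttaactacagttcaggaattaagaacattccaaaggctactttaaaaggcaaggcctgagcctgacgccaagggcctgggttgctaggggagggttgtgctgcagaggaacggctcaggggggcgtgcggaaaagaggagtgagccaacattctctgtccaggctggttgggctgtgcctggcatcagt
Kl, chr5:150952357-150952656, plus strand: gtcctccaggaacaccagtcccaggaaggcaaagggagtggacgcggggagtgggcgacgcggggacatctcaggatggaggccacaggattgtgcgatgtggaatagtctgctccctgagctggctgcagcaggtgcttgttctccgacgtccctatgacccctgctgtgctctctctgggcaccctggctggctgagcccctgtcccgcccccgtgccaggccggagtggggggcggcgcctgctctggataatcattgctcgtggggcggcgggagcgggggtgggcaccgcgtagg
Kcnj13, chr1:87394680-87394979, minus strand: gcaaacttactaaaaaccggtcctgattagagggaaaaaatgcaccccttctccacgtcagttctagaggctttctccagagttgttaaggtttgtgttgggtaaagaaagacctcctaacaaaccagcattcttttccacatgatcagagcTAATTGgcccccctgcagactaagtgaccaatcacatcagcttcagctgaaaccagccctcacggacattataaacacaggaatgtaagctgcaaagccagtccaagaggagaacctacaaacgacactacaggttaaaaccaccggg
Otx2, chr14:48665060-48665359, minus strand: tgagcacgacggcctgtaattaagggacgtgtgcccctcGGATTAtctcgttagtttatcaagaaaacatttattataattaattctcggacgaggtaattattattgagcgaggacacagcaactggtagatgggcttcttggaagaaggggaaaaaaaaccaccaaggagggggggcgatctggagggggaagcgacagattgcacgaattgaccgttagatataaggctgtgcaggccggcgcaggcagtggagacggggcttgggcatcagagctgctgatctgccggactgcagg
The capitals in the Kcnj13 promoter mark TAATTG, a core bound by MSX homeobox proteins, at position -98 from the start. Those in the Otx2 promoter mark GGATTA, the reverse of the OTX2 core TAATCC, at position -211. Both strands were searched and the motifs do not overlap each other. TAATCC was in 3 of the 36 promoters (8.33%), those of Ace, Igf2 and Otx2, against 7.06% of all 32851 promoters in the table. TAATTG was in 4 promoters (11.1%), of Kcnj13, Otx2 (at a start site other than the one shown) and Tmem72, against 8.0% of all, and the forkhead core TGTTTAC in 0 of 36, against 3.65% of all. The Kl promoter was 67.3% G and C, the Ecrg4 promoter 50%, the Otx2 promoter 51.0% and the Kcnj13 promoter 46.0%, with medians of 57.5% for the set and 52.7% for all promoters.

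The carrier Ttr (transthyretin, which carries thyroxine and retinol-binding protein) had the widest swings of the set. Arrays are given in the order baseline, 0 hr, 1 hr, 48 hr and 1 wk here and for each gene that follows. Amygdalar Ttr read 13.04, 10.14, 13.08, 12.68 and 13.17 in DKO mice, against 13.23, 11.17, 11.03, 11.56 and 13.20 in WT mice. Hippocampal Ttr read 13.34, 13.33, 10.25, 11.01 and 10.12 in DKO mice, against 13.05, 12.94, 13.39, 11.73 and 10.46 in WT mice. In the amygdala Ttr was low at 0 hr in both genotypes, stayed low at 1 hr and 48 hr in WT mice alone, and was high in both at 1 wk. In the hippocampus it was high at baseline and 0 hr in both genotypes, low at 1 hr in DKO mice alone, and low in both at 48 hr and 1 wk. Against baseline, Ttr was 7.46-fold lower in the DKO amygdala at 0 hr and 4.16-fold lower in the WT amygdala at 0 hr. In the hippocampus at 1 wk it was 9.29-fold lower in DKO mice and 6.04-fold lower in WT mice. Its highest value, 13.39, stood near the top of the table (13.85), where intensities compress, and only 0.0139% of all transcript clusters varied more across the 20 arrays (SD 1.25, against a median SD of 0.142 over all).

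**Figure D1:**
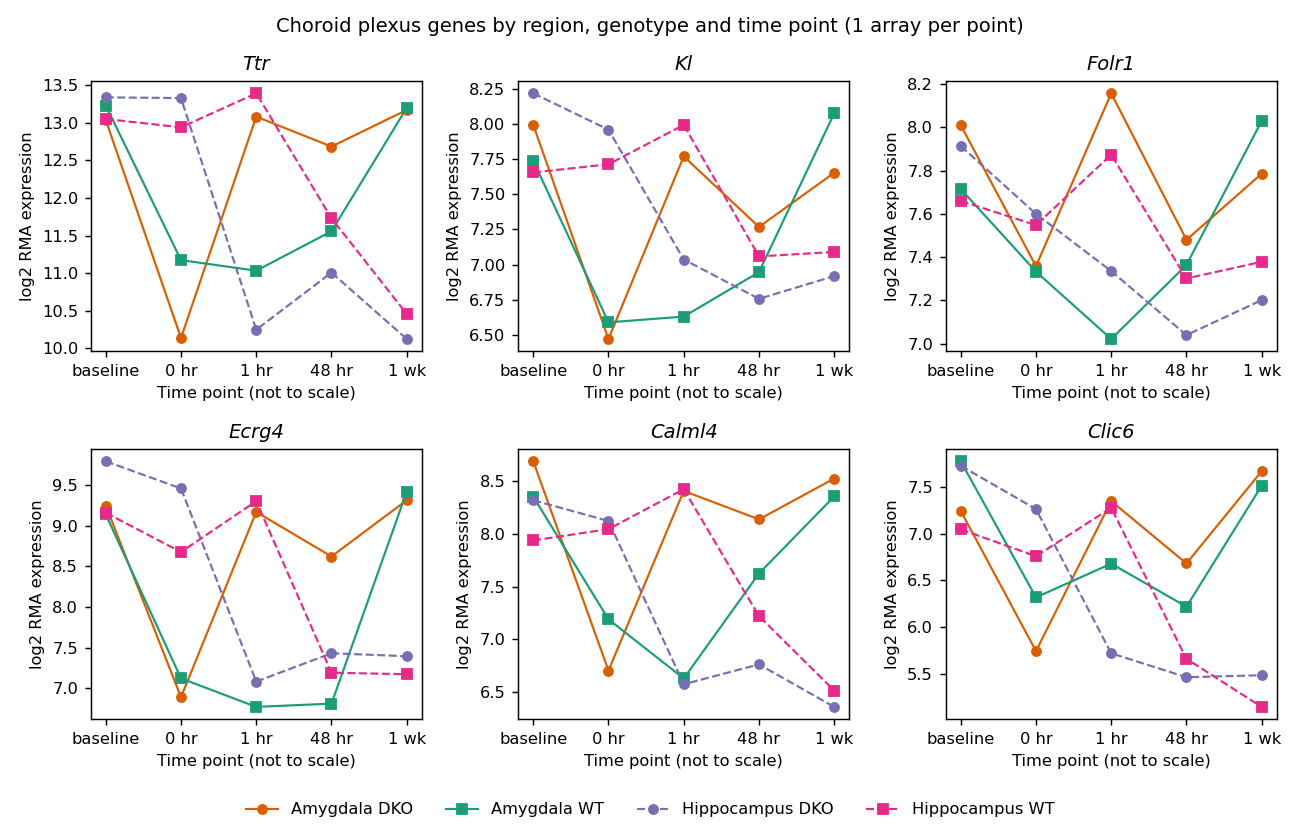
Log2 RMA values (vertical axes) of Ttr, Kl, Folr1, Ecrg4, Calml4 and Clic6 by time relative to CF (horizontal axes, not to scale), 1 point for each array, with DKO as circles and WT as squares, and the amygdala as solid and the hippocampus as dashed lines. Amygdalar values are low at 0 hr and high at 1 wk in both genotypes, hippocampal values are high at 0 hr and low at 1 wk in both, and at 1 hr the genotypes lie apart in opposite directions.

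The other defining markers, Kl and Folr1, moved over a narrower range, with their lowest values on other arrays than that of Ttr (Spearman's rho with Ttr over the 20 arrays 0.859 for Kl and 0.795 for Folr1). Kl encodes klotho, a co-receptor for a fibroblast growth factor that the choroid plexus shares with the kidney. Amygdalar Kl read 7.99, 6.47, 7.77, 7.27 and 7.65 in DKO mice, against 7.74, 6.59, 6.63, 6.95 and 8.07 in WT mice. Hippocampal Kl read 8.22, 7.96, 7.04, 6.76 and 6.92 in DKO mice, against 7.65, 7.71, 7.99, 7.06 and 7.09 in WT mice. Every array with Kl below 7.10 was one with Ttr below 12, and its lowest value, 6.47, was in the DKO amygdala at 0 hr, as for Ttr in that region. Folr1 encodes the folate receptor that carries folate across the epithelium into the fluid. Amygdalar Folr1 read 8.01, 7.36, 8.16, 7.48 and 7.79 in DKO mice, against 7.72, 7.33, 7.02, 7.36 and 8.03 in WT mice. Hippocampal Folr1 read 7.91, 7.60, 7.34, 7.04 and 7.20 in DKO mice, against 7.66, 7.55, 7.87, 7.30 and 7.38 in WT mice. Folr1 spanned 1.14 over the 20 arrays, against 3.27 for Ttr, and was never as much as 2-fold below its baseline.

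Among the secreted factors, Ecrg4 came next to Ttr. It encodes augurin, a secreted peptide precursor of the choroid plexus. Amygdalar Ecrg4 read 9.25, 6.89, 9.17, 8.62 and 9.31 in DKO mice, against 9.14, 7.12, 6.77, 6.81 and 9.42 in WT mice. Hippocampal Ecrg4 read 9.79, 9.46, 7.08, 7.43 and 7.39 in DKO mice, against 9.16, 8.67, 9.30, 7.19 and 7.17 in WT mice. The low arrays of Ecrg4, at 6.77 to 7.43, and the high ones, at 8.62 to 9.79, left a wide space between them, and the same arrays were low as for Ttr. Sostdc1 encodes an antagonist of BMP and Wnt signals. Amygdalar Sostdc1 read 8.29, 7.44, 7.89, 7.82 and 8.41 in DKO mice, against 7.94, 7.19, 7.05, 7.65 and 8.35 in WT mice. Hippocampal Sostdc1 read 8.72, 8.51, 7.07, 7.36 and 7.20 in DKO mice, against 8.24, 7.87, 8.23, 7.11 and 7.09 in WT mice. Its highest value, 8.72, was in the DKO hippocampus at baseline. F5 encodes coagulation factor V. Amygdalar F5 read 6.85, 5.49, 6.57, 6.10 and 6.41 in DKO mice, against 6.44, 5.72, 5.56, 5.62 and 6.58 in WT mice. Hippocampal F5 read 6.62, 6.18, 5.23, 5.34 and 5.65 in DKO mice, against 6.23, 6.01, 6.30, 5.62 and 5.62 in WT mice. F5 was lower by 1.5-fold or more on 10 of the 16 later arrays, as were Ecrg4 and Kcne2, the most in the set.

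Sulf1 encodes an extracellular sulfatase that trims heparan sulfate. Amygdalar Sulf1 read 7.66, 6.86, 7.88, 7.45 and 7.80 in DKO mice, against 8.17, 7.14, 7.44, 6.90 and 7.70 in WT mice. Hippocampal Sulf1 read 7.48, 7.29, 6.34, 6.45 and 6.30 in DKO mice, against 7.17, 7.01, 7.19, 6.60 and 6.36 in WT mice. Within each region it was low where Ttr was low, and amygdalar values averaged higher. The remaining carriers, secreted factors and matrix genes varied less. Lbp, which encodes a lipopolysaccharide-binding protein, read 6.03 to 7.40 over the 20 arrays, the collagen VIII chain genes Col8a1 and Col8a2 6.28 to 7.59 and 6.05 to 6.55, the growth factor gene Igf2 6.77 to 7.83 and the binding protein gene Igfbp2 6.64 to 7.52. Col8a2 had an SD of 0.146, and 47.1% of all transcript clusters varied more.

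The channels and transporters were led by Clic6 and Kcne2. Clic6 encodes a chloride channel protein of secretory epithelia. Amygdalar Clic6 read 7.24, 5.74, 7.35, 6.68 and 7.67 in DKO mice, against 7.78, 6.32, 6.68, 6.22 and 7.51 in WT mice. Hippocampal Clic6 read 7.73, 7.26, 5.72, 5.46 and 5.48 in DKO mice, against 7.05, 6.76, 7.28, 5.66 and 5.14 in WT mice. Its lowest value, 5.14, was in the WT hippocampus at 1 wk. Kcne2 encodes a regulatory subunit of potassium channels. Amygdalar Kcne2 read 7.64, 6.56, 7.59, 7.03 and 7.75 in DKO mice, against 7.60, 6.33, 6.13, 6.49 and 7.73 in WT mice. Hippocampal Kcne2 read 8.08, 7.61, 6.39, 5.91 and 6.41 in DKO mice, against 7.52, 7.49, 7.62, 6.14 and 6.57 in WT mice. Kcne2 in the DKO hippocampus at 48 hr was 4.49-fold below its baseline. Kcnj13 encodes the inward rectifier of the epithelium's apical face and Trpm3 a cation channel. Kcnj13 read 8.40 to 9.79 and Trpm3 7.92 to 9.60, and each was lower by 1.5-fold or more on 9 of the 16 later arrays. The water channel gene Aqp1 (6.24 to 7.06) and the bicarbonate transporter gene Slc4a5 (6.19 to 6.93) spanned less than 1 on the log2 scale. Slc13a4 encodes a sulfate transporter. Amygdalar Slc13a4 read 7.70, 7.19, 7.38, 7.32 and 7.22 in DKO mice, against 7.50, 6.91, 6.74, 7.28 and 7.44 in WT mice. Hippocampal Slc13a4 read 7.76, 7.85, 7.43, 7.27 and 7.29 in DKO mice, against 7.86, 7.75, 7.57, 7.53 and 7.35 in WT mice. It was lower by 1.5-fold or more on 2 of the 16 later arrays.

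Of the cellular proteins, Calml4, a calmodulin-like protein, varied most. Amygdalar Calml4 read 8.69, 6.70, 8.41, 8.14 and 8.53 in DKO mice, against 8.35, 7.19, 6.63, 7.62 and 8.36 in WT mice. Hippocampal Calml4 read 8.32, 8.12, 6.57, 6.76 and 6.36 in DKO mice, against 7.94, 8.05, 8.42, 7.22 and 6.51 in WT mice. In the DKO amygdala at 0 hr it was 3.97-fold below baseline. Cox8b encodes a subunit of cytochrome c oxidase. Amygdalar Cox8b read 7.68, 6.15, 7.22, 7.03 and 7.06 in DKO mice, against 7.77, 6.44, 6.44, 7.02 and 7.76 in WT mice. Hippocampal Cox8b read 7.20, 7.01, 6.45, 6.26 and 6.52 in DKO mice, against 6.93, 6.88, 7.36, 6.51 and 6.59 in WT mice. Its high arrays in the amygdala, 7.76 and 7.77 in WT mice, were above every hippocampal array. The tight junction genes Cldn1 (5.33 to 6.85) and Cldn2 (5.55 to 6.85), the metalloreductase family gene Steap1 (5.35 to 6.98) and the vesicle SNARE gene Vamp8 (8.46 to 9.70) spanned 1.24 to 1.63, and the retinol dehydrogenase gene Rdh5 (6.17 to 6.90) and Tmem72 (6.33 to 7.30) less than 1. Of the surface proteins not yet given, the clearance receptor for natriuretic peptides Npr3 (6.70 to 7.66), the angiotensin-converting enzyme Ace (6.06 to 6.99) and the carbonic anhydrase Car12 (6.53 to 7.24) each spanned less than 1.

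Otx2 and Msx1 are the transcription factors of the set, both homeobox genes, and Otx2 is known to keep the identity of choroid plexus cells. Amygdalar Otx2 read 7.02, 6.06, 7.24, 6.50 and 7.04 in DKO mice, against 7.05, 5.75, 5.74, 6.04 and 6.91 in WT mice. Hippocampal Otx2 read 7.49, 7.44, 6.79, 6.87 and 6.56 in DKO mice, against 7.08, 7.24, 7.44, 6.95 and 6.56 in WT mice. In each group Otx2 was low on the arrays with low Ttr, and its low hippocampal values, 6.56 to 6.95, lay above its low amygdalar ones, 5.74 to 6.06. Msx1 read 6.85 to 7.63 and was lower or higher by 1.5-fold on none of the 16 later arrays.

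**Figure D2:**
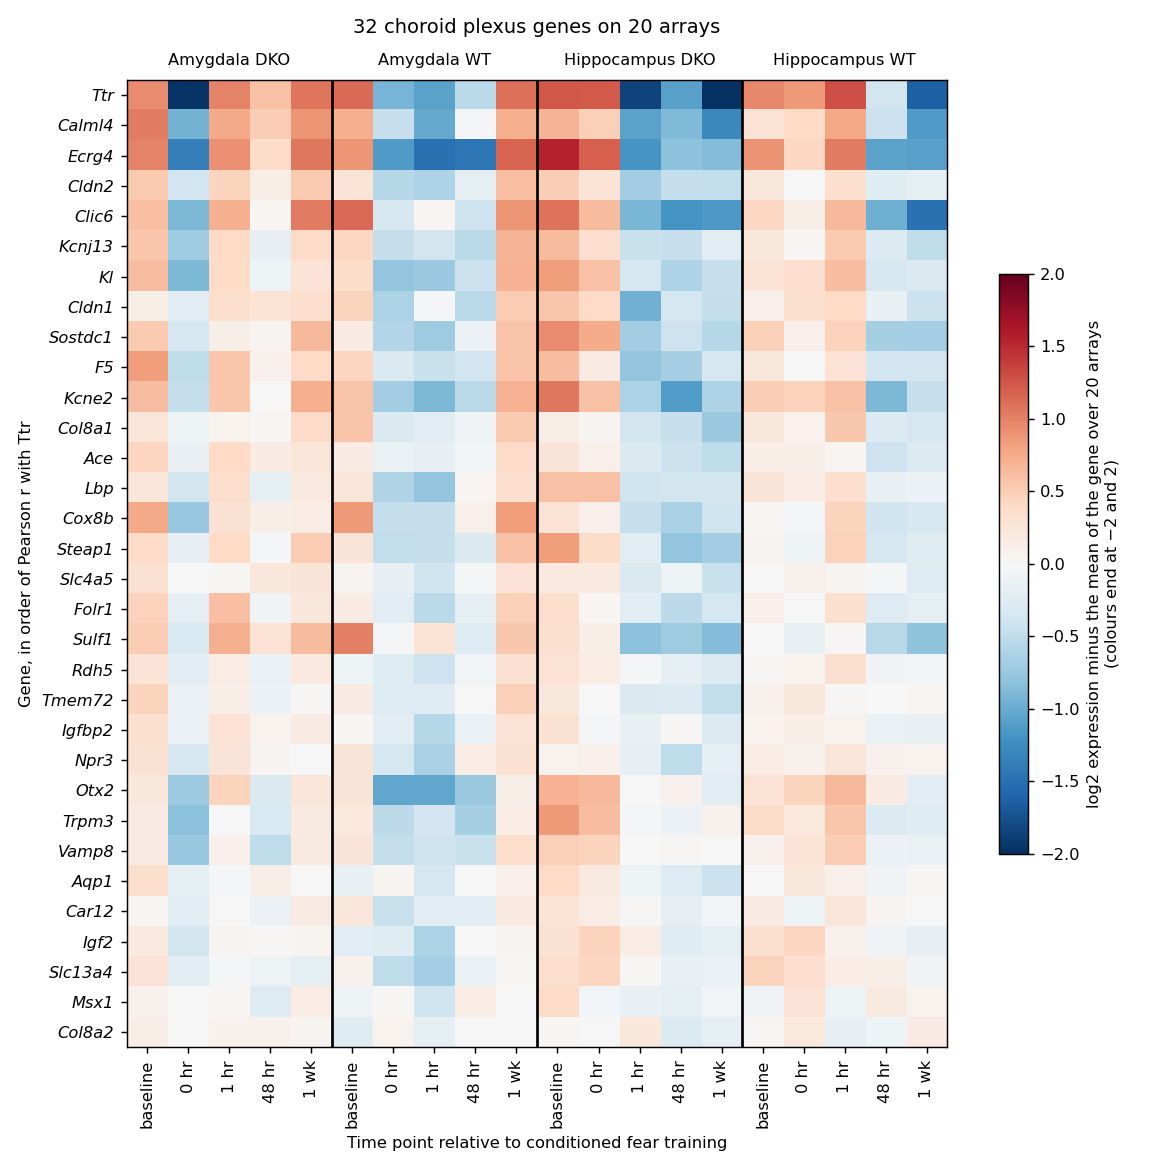
Log2 RMA values of the 32 genes (rows, in order of their r with Ttr) on the 20 arrays (columns, by region, genotype and time), as colours for the difference from the gene's own mean over the 20 arrays. Most rows are low on the same 9 arrays, and the Col8a2 and Msx1 rows show little contrast.

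Counts over the set gave the same picture array by array. Each later array was set against the baseline array of its own group, so the 4 changes of a group share that baseline, and since the set was drawn up with such changes known the counts are a description with no test. In the DKO amygdala the genes lower by 1.5-fold or more were 18 of 32 at 0 hr (0.399% of all transcript clusters), 0 at 1 hr (0.208% of all), 7 at 48 hr (1.07% of all) and 1 at 1 wk (0.430% of all). In the WT amygdala they were 22 at 0 hr (0.568% of all), 22 at 1 hr (0.409% of all), 15 at 48 hr (1.84% of all) and 0 at 1 wk (1.82% of all). The DKO hippocampus had 0 at 0 hr (0.121% of all), 17 at 1 hr (0.253% of all), 22 at 48 hr (0.513% of all) and 23 at 1 wk (0.406% of all). The WT hippocampus had 0 at 0 hr (0.0832% of all), 0 at 1 hr (0.139% of all), 9 at 48 hr (0.152% of all) and 10 at 1 wk (0.111% of all). On the 16 later arrays 0 genes of the set were higher by 1.5-fold or more, against 0.621% of all transcript clusters pooled over these arrays. The DKO amygdala at 48 hr had 3 genes in place of 7 once arrays were centred on their medians, as that array lay lower than its baseline over all transcript clusters (median change -0.13). The WT hippocampus had 16 in place of 10 at 1 wk after further quantile normalization, and 14 in place of 9 at 48 hr against the mean of both hippocampal baselines.

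Median changes of the 32 genes ran from -0.89 in the DKO hippocampus at 48 hr to 0.14 in the WT amygdala at 1 wk. Behind Ecrg4, F5 and Kcne2 came Calml4, Clic6, Cox8b, Kcnj13, Kl, Trpm3 and Ttr, lower by 1.5-fold or more on 9 of 16 arrays, Sostdc1 and Sulf1 on 8 and Otx2 on 7. Cldn2 and Lbp reached that size on 6 arrays and Cldn1, Col8a1, Steap1 and Vamp8 on 5. Folr1 and Npr3 reached that size on 4 arrays, Ace, Aqp1 and Slc13a4 on 2, and Car12, Igfbp2, Slc4a5 and Tmem72 on 1. Col8a2, Igf2, Msx1 and Rdh5 reached it on 0 arrays.

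**Figure D3:**
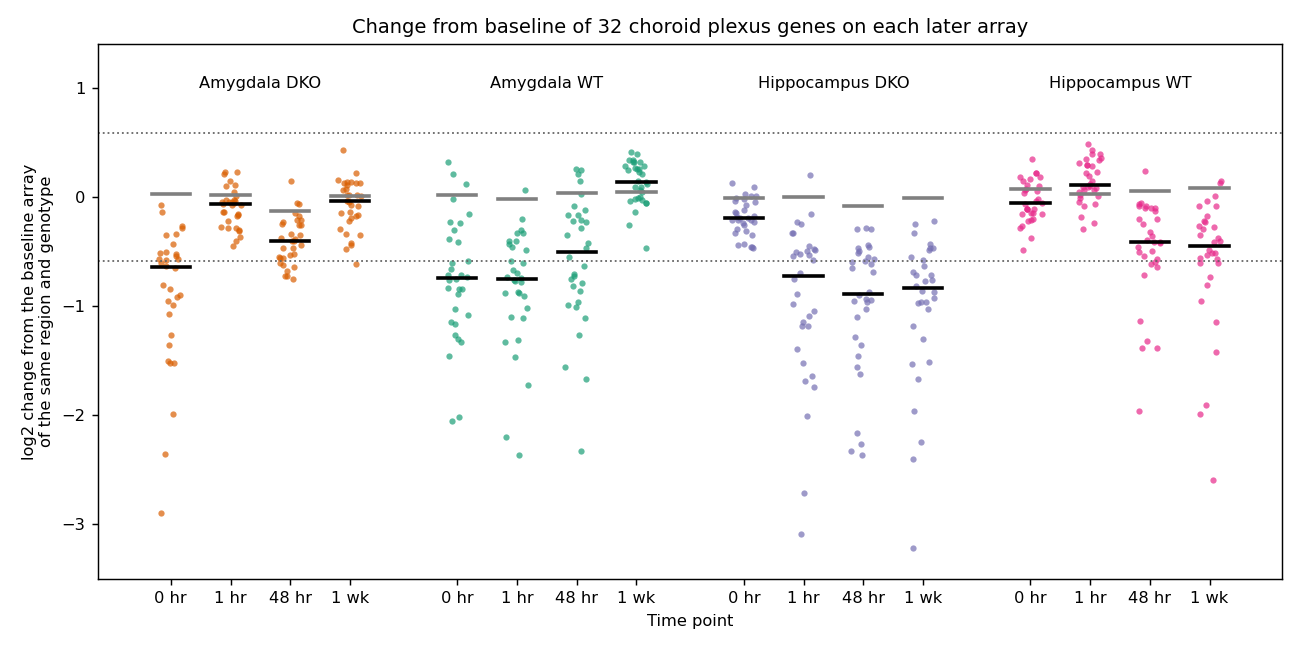
Log2 change from the group's own baseline array (vertical axis) of each of the 32 genes (points) on the 16 later arrays (horizontal axis, by region, genotype and time), with the median over the genes as a black bar, the median over all transcript clusters as a grey bar and dotted lines at 1.5-fold. The medians lie below -0.6 in the amygdala at 0 hr in both genotypes, in the WT amygdala at 1 hr and in the DKO hippocampus at 1 hr, 48 hr and 1 wk, and near 0 in the amygdala at 1 wk.

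Genotypes were first set side by side at each time, as single arrays with no test. At 1 hr the set lay higher in the DKO amygdala, with all 32 genes above their WT value and 19 by 1.5-fold or more (1.21% of all transcript clusters were), while in the DKO hippocampus 30 of 32 lay below their WT value and 18 by 1.5-fold or more (0.530% of all). The difference in Ttr, DKO minus WT, was 2.05 in the amygdala and -3.15 in the hippocampus at that time. At baseline, 3 genes were higher by 1.5-fold or more in the DKO hippocampus (0.378% of all) and 0 in the DKO amygdala (2.55% of all), and at 1 wk 1 gene was lower in the DKO amygdala (0.388% of all) and 0 in the DKO hippocampus (0.901% of all). At 0 hr, 1 gene was lower in the DKO amygdala (0.444% of all), where the difference in Ttr was -1.04, and 2 were higher in the DKO hippocampus (0.645% of all), with 0.39 for Ttr. At 48 hr, 3 genes were higher in the DKO amygdala (0.354% of all), with 1.13 for Ttr, and 2 were lower in the DKO hippocampus (0.960% of all), with -0.72 for Ttr.

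Across the 5 times, taken as replicates of a genotype, limma called 0 of the 32 genes in either region, where the limit was an adjusted p of 0.1. For the amygdala, 0.00347% of all transcript clusters were called higher and 0.0936% lower in DKO mice, and 0 of the 32 genes had an unadjusted p below 0.05. In the hippocampus the shares were 0.0173% and 0.101%, and Npr3 (-0.27, SE 0.0963, adjusted p = 0.390) and Tmem72 (-0.24, adjusted p = 0.427) were below 0.05 unadjusted. Ttr averaged 12.42 ± 1.29 in the DKO amygdala and 12.04 ± 1.09 in the WT amygdala (SD, n = 5 arrays each), a difference of 0.38 (SE 0.544, limma adjusted p = 0.785). It averaged 11.61 ± 1.61 in the DKO hippocampus and 12.31 ± 1.21 in the WT hippocampus, a difference of -0.70 (SE 0.657, limma adjusted p = 0.668). With Benjamini-Hochberg adjustment, the methods' t-test also called 0 of the 32 genes in each region. The interaction of region and genotype passed for 0 of the 32 genes (0.00347% of all higher, 0.00693% lower, 0 of the 32 below 0.05 unadjusted), with 1.09 for Ttr (SE 0.971, limma adjusted p = 0.506). As each replicate was taken at another time, the changes with time are part of these errors, and a p above the limit does not show that the genotypes are alike.

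Between the regions, limma called 2 of the 32 genes at an adjusted p of 0.05, while 8.78% of all transcript clusters were called higher in the amygdala and 8.95% lower. Sulf1 was higher, at 7.53 ± 0.409 in the DKO amygdala, 7.47 ± 0.494 in the WT amygdala, 6.77 ± 0.569 in the DKO hippocampus and 6.87 ± 0.368 in the WT hippocampus (SD, n = 5 arrays each), a difference of 0.68 (SE 0.175, limma adjusted p = 0.00656). Slc13a4 was lower, at 7.36 ± 0.204 in the DKO amygdala, 7.17 ± 0.336 in the WT amygdala, 7.52 ± 0.271 in the DKO hippocampus and 7.61 ± 0.200 in the WT hippocampus, a difference of -0.30 (SE 0.1005, limma adjusted p = 0.0389). The Sulf1 call was kept whichever array was left out (0.59 to 0.77), whereas the Slc13a4 call was lost with 11 of the 20 arrays left out in turn (-0.34 to -0.25). Those 11 were the 0 hr, 1 hr, 48 hr and 1 wk arrays of the DKO amygdala, the 0 hr and 1 hr arrays of the WT amygdala, the baseline and 0 hr arrays of the DKO hippocampus, and the baseline, 0 hr and 1 hr arrays of the WT hippocampus. Otx2 had a difference of -0.51 (SE 0.179, limma adjusted p = 0.0526) and Trpm3 of -0.40 (SE 0.152, limma adjusted p = 0.0745). Ttr itself differed by 0.27 between regions (SE 0.486, limma adjusted p = 0.772).

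With the Ttr value of each array as a covariate, a fit added after the data were seen, 9 of 31 genes passed between regions, against 17.2% of all transcript clusters. The covariate takes out the covariation by which the genes are treated as chosen, so their errors shrink. The 9 of 31 cannot therefore be compared like with like with 17.2%. The values and calls of this fit are a description with no test, and no p is given. Sulf1 (0.59, SE 0.0742, against an SE of 0.175 without the covariate), Clic6 (0.40), Calml4 (0.27) and Ace (0.20) were higher in the amygdala at a given Ttr value. Otx2 (-0.59, SE 0.0837), Trpm3 (-0.47, SE 0.0710), Vamp8 (-0.37), Slc13a4 (-0.34) and Igf2 (-0.25) were lower there. In that fit 0 of 31 genes passed for genotype in either region or for the interaction, while the shares of all transcript clusters that passed were 0.0901% for amygdalar genotype, 0.104% for hippocampal genotype and 0.00693% for the interaction.

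**Figure D4:**
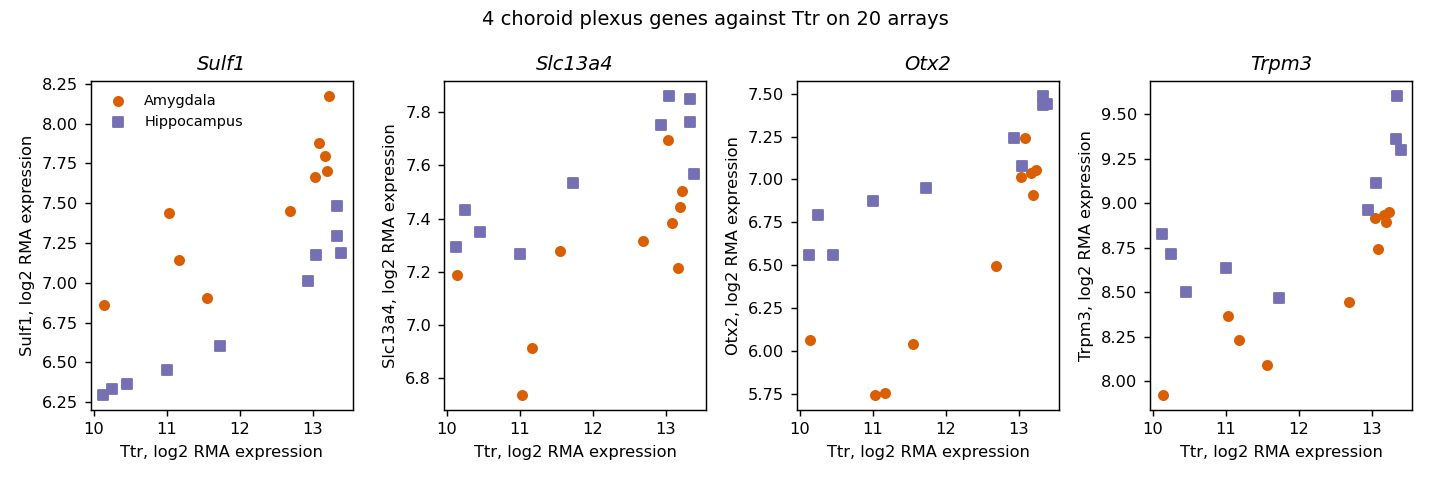
Log2 RMA values of Sulf1, Slc13a4, Otx2 and Trpm3 (vertical axes) against that of Ttr (horizontal axes), 1 point for each of the 20 arrays, with the amygdala as circles and the hippocampus as squares. At like Ttr values the Sulf1 points of the amygdala lie above those of the hippocampus, and the Slc13a4, Otx2 and Trpm3 points of the amygdala lie mostly below.

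Covariation with Ttr was described within the sets of arrays that Ttr itself forms. Ttr values had a widest gap of 0.955, between 11.73 and 12.68, with 11 arrays above and 9 below it, and the next widest gap was 0.551. Within the 11 arrays above the gap the 31 other genes had a median Pearson r with Ttr of 0.47 and 11 reached 0.7, among them Ecrg4 (0.840), Kcnj13 (0.793), Kl (0.792) and Vamp8 (0.905). Within the 9 arrays below it the median r was 0.19 and 1 gene reached 0.7. The share of all transcript clusters at 0.7 was not counted within either set, so these counts cannot be set against it. Over all 20 arrays, which include the step between the sets, the median was 0.81 and 22 of 31 genes reached 0.7 (0.173% of all transcript clusters did). There Calml4 stood at 0.962, Ecrg4 at 0.923, Msx1 at 0.281 and Col8a2 at 0.0604. Each set holds a narrower range of Ttr, which by itself lowers r, so the share of r due to the step cannot be told. Spearman's rho over the 20 arrays had a median of 0.80. The median r was 0.84 over the 10 amygdala arrays, 0.88 over the 10 hippocampus arrays and 0.80 without the 2 arrays farthest from the median of Ttr (DKO hippocampus at 1 wk and DKO amygdala at 0 hr). The points share arrays, pools and normalization, and no p is given.

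**Figure D5:**
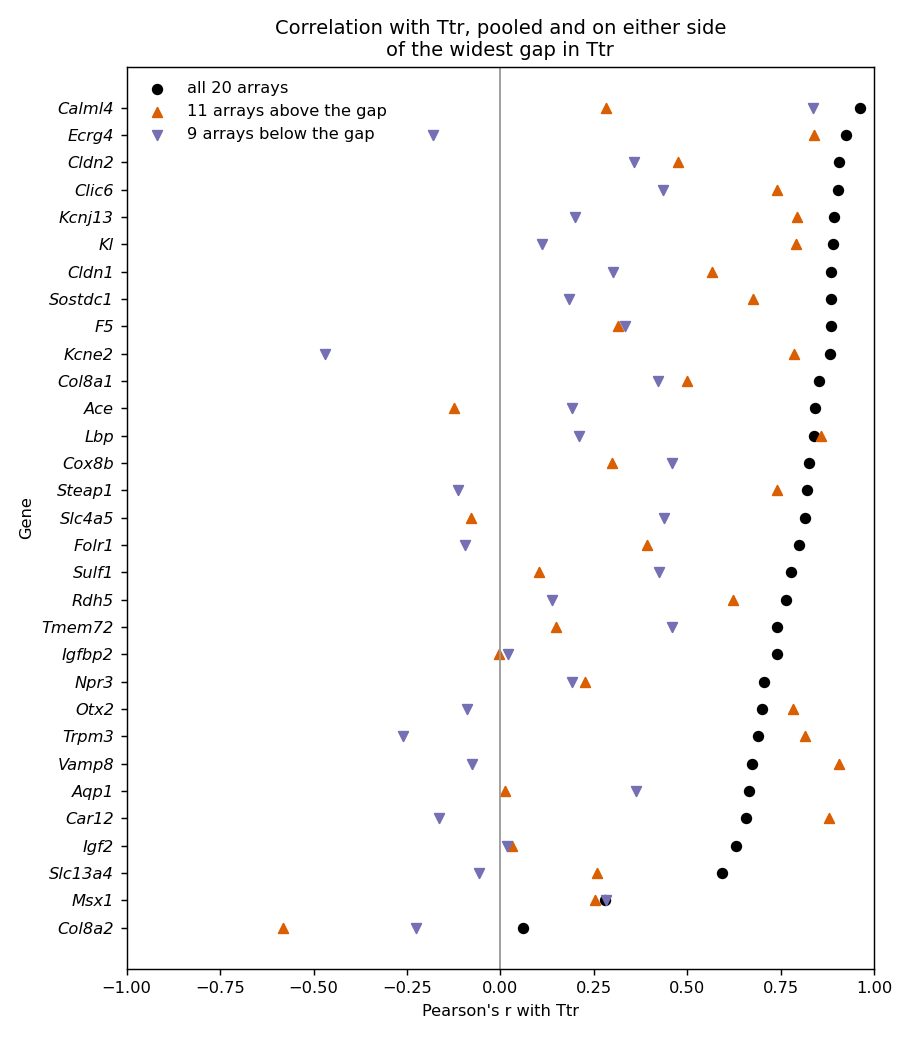
Pearson r with Ttr (horizontal axis) of the other 31 genes (rows), over all 20 arrays and within the arrays above and below the widest gap in Ttr (separate symbols). Most genes lie above 0.7 over all arrays and scatter more widely, about medians of 0.47 and 0.19, within the sets.

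Outside the set, the 10 genes most like Ttr over the 20 arrays by Pearson r were Cab39l (0.888), Drc7 (0.855), Phactr2 (0.847), Mia (0.823), Prelp (0.820), Wfdc2 (0.818), Slc2a12 (0.815), Krt18 (0.808), Ifi27 (0.80) and Defb11 (0.790). These r also include the step in Ttr. Within the arrays above the gap they ran from 0.163 (Prelp) to 0.732 (Cab39l), and below it from -0.237 (Wfdc2) to 0.694 (Phactr2). In a list of further choroid plexus genes, 27 of 30 were found, and 6 reached an r of 0.7, with a median of 0.46 and an r of 0.807 for the list's mean. The mean of that list moved between 6.96 and 7.45 over the arrays, less than the set did, and 0 of its 27 genes passed for genotype in either region. Between the regions, 2 of the 27 passed as higher in the amygdala and 8 as lower (8.78% and 8.95% of all transcript clusters).

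Ependymal cells, which line the ventricles and carry motile cilia, are the nearest other cell type. Of 10 ependymal markers (the cilia factor Foxj1 among them), 1 reached an r of 0.7 with Ttr (Mia, 0.823), with a median of 0.48, and 6 of 10 were higher in the amygdala (8.78% of all transcript clusters were). The mean of the 10 markers had an r with Ttr of 0.614 over the 20 arrays, 0.587 over the amygdala arrays and 0.872 over the hippocampus arrays. That mean ranged from 7.17 to 7.64 in the DKO amygdala and 6.91 to 7.38 in the WT amygdala, and from 6.77 to 7.28 in the DKO hippocampus and 6.85 to 7.17 in the WT hippocampus. At 0 hr, 1 hr, 48 hr and 1 wk its change from baseline was -0.18, 0.22, -0.25 and 0.07 in the DKO amygdala, against -0.13, -0.41, 0.05 and -0.01 in the WT amygdala. In the hippocampus the changes were 0.29, -0.16, -0.11 and -0.22 in DKO mice, against -0.06, 0.04, -0.04 and -0.28 in WT mice. Some of these ran with the median of the choroid plexus set and some did not, as in the WT amygdala at 48 hr (0.05, against -0.51 for the set). Of the 10 markers, Hydin had the lowest value on any array, 5.23. Markers of meninges (median r with Ttr 0.10), endothelium (-0.09), thalamus (-0.23), striatum (0.09), hippocampus (-0.08) and amygdala (0.07) had medians nearer 0 over the 20 arrays. The mean of the meninges markers had an r of 0.0748 there, 0.286 over the amygdala arrays and 0.403 over the hippocampus arrays. For the thalamus markers it was -0.202 over the amygdala arrays and -0.383 over the hippocampus arrays. Within a region the means of the other lists lay between -0.244 and 0.192. Between the regions, 4 of 4 striatum markers and 1 of 10 meninges markers were higher in the amygdala (8.78% of all transcript clusters were). Lower there were 8 of 8 thalamus, 6 of 10 meninges and 3 of 8 endothelium markers (8.95% of all). Some tissue markers changed on arrays where the choroid plexus set was low, and some where it was not. The striatum markers changed most in the WT amygdala at 1 wk (-0.85), where 0 of the 32 genes were lower by 1.5-fold or more. In the WT amygdala at 48 hr the mean of the hippocampus markers changed by 0.51 (4 of 8 higher by 1.5-fold or more, against 1.48% of all transcript clusters). That of the striatum markers changed by -0.73 and that of the amygdala markers by -0.40. In the WT hippocampus the thalamus markers changed by 0.41 at 1 wk and the amygdala markers by 0.47 at 48 hr. In the DKO hippocampus the thalamus markers changed by -0.14, 0.30 and -0.11 at 1 hr, 48 hr and 1 wk. Their mean ranged from 8.09 to 8.53 in the DKO hippocampus and from 7.59 to 8.07 in the WT hippocampus. For hippocampal genotype, 1 of 8 thalamus markers passed as higher in DKO mice (0.0173% of all transcript clusters). The part that the ventricle lining or the neighbouring tissue in a micropunch has in these values was not tested.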

How the data were processed

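RNA from micropunches was hybridised to 20 arrays. Per the labels and the methods, the authors corrected the background, quantile-normalized and summarized the probes by RMA in the Affymetrix Expression Console (version not given in the sources used here), and deposited log2 values for 28853 transcript clusters. The build of the array annotation is likewise not given. Arrays carry no read depth, and their number, 1 for each region, genotype and time, limits the precision. All 20 value columns were mapped to samples by their titles, no 2 arrays were identical and none was left out. No filter was applied.

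The 34 genes and the comparison lists were chosen with earlier results of these data known. Values were named in full for Ttr, Kl, Folr1, the 9 other genes with the largest SD and those called in a replicated test, along with the 10 outside genes most correlated with Ttr. Models were fitted with limma 3.58.1 (lmFit, eBayes) in R 4.3.3 and adjusted by Benjamini-Hochberg over all transcript clusters, two-sided, with a limit of 0.1 for genotype within a region and 0.05 for the region and its interaction with genotype. Times served as replicates, and p-values measure the spread between such pooled samples. Whether both regions came from the same mice is not stated, so they need not be independent. The fits were tried on simulated data with noise drawn separately for each gene, so genes that move together, as here, were not covered. Limits on missed and false calls were set there for genotype and region, not for the interaction. Changes from baseline were counted at 1.5-fold. The lists held further choroid plexus genes and markers of ependyma, meninges, endothelium, thalamus, striatum, hippocampus and amygdala. Alternatives were a 2-fold limit, further quantile normalization, median centring, the mean of both baselines, a level filter, a robust variance trend, array weights, a time block and leaving out arrays. Promoters came from RefSeq (GRCm38.p6).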

Additional observations from a re-analysis of the deposited data

Results flagged for a closer look

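Of 128 sets of 5 arrays (32 genes in 4 groups), 4 had an array far from the other 4 of its group by Dixon's ratio. The genes moved together, so the sets are not independent and their number cannot be set against chance. The ratio looks for 1 far array, so it can miss groups in which several arrays were low together. The genes were chosen with such changes known, so these values are a description and no test of a time. In the DKO amygdala the 0 hr array was the lowest for Ttr (10.14, against 12.68 to 13.17 on the others), for Ecrg4 (6.89, against 8.62 to 9.31) and for Calml4 (6.70, against 8.14 to 8.69). In the DKO hippocampus the baseline array was the highest for Msx1 (7.63, against 7.06 to 7.20).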

How the results depend on the processing

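At a 2-fold limit the genes lower than baseline were 9 (0 hr), 0 (48 hr) and 0 (1 wk) for the DKO amygdala, 10 (0 hr), 9 (1 hr) and 6 (48 hr) for the WT amygdala, 13 (1 hr), 11 (48 hr) and 10 (1 wk) for the DKO hippocampus, and 5 (48 hr) and 5 (1 wk) for the WT hippocampus. Shares of all transcript clusters were not counted at that limit, nor for the other changes from baseline given next. Further quantile normalization gave 2 in the DKO amygdala at 48 hr and 16 in the WT hippocampus at 1 wk. Median centring gave 3 in the DKO amygdala at 48 hr, 0 there at 1 wk and 1 in the WT amygdala at 1 wk. Against the mean of both baselines of a region, the WT hippocampus had 3 at 0 hr and 14 at 48 hr. Covariation at 0.7 or more held for 11 genes above the gap in Ttr and 1 below it, where the share of all transcript clusters was not counted. Genes called lower in the amygdala than in the hippocampus numbered 2 with further quantile normalization, 2 with median centring, 3 among transcript clusters above the median level, 5 with array weights, 2 without the baseline arrays and 5 with Ttr as a covariate, which also gave 4 called higher. The counts with the covariate are a description and no test. The causes were not tested. Leaving out each array in turn gave 1 to 2 called higher and 0 to 3 called lower. For genotype and its interaction with region the counts stayed at 0 under each alternative. Over these alternatives 43 counts moved and 224 did not, many of the latter being genotype and interaction counts that stayed at 0. The region differences of Sulf1 and Slc13a4 kept their sign under each alternative, and the Slc13a4 call was lost under 11. Arrays of the same time did not deviate together in every pair (correlations of -0.42 to 0.20 between genotypes in the amygdala, -0.13 to 0.23 in the hippocampus and -0.39 to 0.53 between regions), so the time was not used to pair them, and whether they share mice is not stated. With time as a replicate block no call changed, with Slc13a4 at a limma adjusted p of 0.0234. With 1 array for each region, genotype and time, no change at a single time can be tested.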
